A study of Homo sapiens with 12 samples.

Results

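The quantity described here is the difference between the responses of 2 macrophage polarization states to monocyclohexyl phthalate (MCHP), a phthalate monoester. It was taken from all 12 libraries of the study as the log2 response to MCHP in M1 cells minus the log2 response in M2 cells, and was computed a second time from 11 libraries, without M2 DMSO replicate 1. The series bears the title of a study on dicyclohexyl phthalate (DCHP) and lipid-associated macrophages, and its design text gives the regulation of macrophage polarization by MCHP as the question. The cells are named PPRE-eGEP-THP-1, a line derived from THP-1, a human monocytic leukaemia, and their RNA was sequenced in 4 groups of 3 libraries that the labels call biological replicates. All cells were made into resting macrophages with the phorbol ester PMA (25 ng/mL, 48 h) and a rest of 24 h without it. M1 cells then received lipopolysaccharide (LPS, 100 ng/mL) with interferon gamma (20 ng/mL), and M2 cells received interleukin 4 and interleukin 13 (20 ng/mL each). Polarization lasted 24 h, and during it 1 group of each state received 100 µM MCHP and the other the solvent, labelled DMSO. The groups are called M1 DMSO, M1 MCHP, M2 DMSO and M2 MCHP. Every library comes from the same line, so the replicates hold no difference between donors, and no unpolarized cells were analysed here.

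Peroxisome proliferator-activated receptors (PPARs) are nuclear receptors that bind fatty acids and other lipid-like ligands, pair with a retinoid X receptor, and switch on genes of fatty acid uptake, transport, storage and oxidation. Interleukin 4 raises PPAR gamma in macrophages, and these cells use fatty acids as fuel. LPS acts through Toll-like receptor 4 and NF-kB and leads to inflammatory cytokines and chemokines, and interferon gamma leads to interferon-stimulated genes.

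The count table held 58907 genes, of which 15252 passed the filter on low counts and were tested. Libraries held between 14352202 and 16871233 counts, and expression values are CPM, counts scaled to a common library size with TMM factors. One library stood apart. Over genes with a mean of at least 5 CPM, the log2 deviations of M2 DMSO replicate 1 from its group spread with an SD of 0.330, while those of the remaining 11 libraries had SDs of 0.144 to 0.206. This library enters every value of the M2 response in the fit of 12, and results are therefore given with and without it. Macrophage markers were present in every library, with 4870 to 14439 counts of ITGAM and 3610 to 5649 of CSF1R, but CD68 had only 0 to 7. CD2, MS4A1 and EPCAM, markers of T cells, B cells and epithelium, had no count, while the fibroblast collagen COL1A1 had 347 to 2071 and the endothelial VWF 318 to 1385. The part of these transcripts in the results was not tested.

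Genes of lipid uptake, transport and storage, PLIN2, FABP3, FABP5 and SCARB1 among them, rose with MCHP in M2 cells, with responses further upward than in M1 cells. The chemokines CCL1 and CCL8 and the surface proteins CD209 and CD83 fell in M2 cells, with responses further downward than in M1 cells. In bulk RNA, a change in the share of cells that express a gene and a change in RNA per cell cannot be told apart. In the fit of 12 libraries the responses differed for 25 genes, 0.164% of the genes tested, by edgeR's quasi-likelihood test with Benjamini-Hochberg adjustment at a threshold of 0.05. The difference was negative for 16 genes (0.105%), meaning that the response was further upward in M2, and positive for 9 (0.059%). Without adjustment, 1349 genes had p under 0.05. The size of the difference among the 25 lay between 0.48 and 1.47 on the log2 scale, with a median of 0.77, while the median difference over all genes tested was -0.0025. The libraries with and without MCHP did not overlap in M2 for all 25 genes and in M1 for 14, where 20.8% and 15.9% of all genes tested had no overlap. The same libraries give the difference, so these counts describe the 25 genes and do not test them. PLIN2, TLR4, FABP3, ADGRE3, CD209 and CD83 passed with any 1 library left out. Without 1 of the M1 libraries, or without M2 MCHP replicate 1 or 3, between 6 and 13 genes passed in all. For scale, MCHP against DMSO alone passed the test for 13 genes in M1 (0.0852%) and 779 in M2 (5.11%) in this fit.

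**Figure D1:**
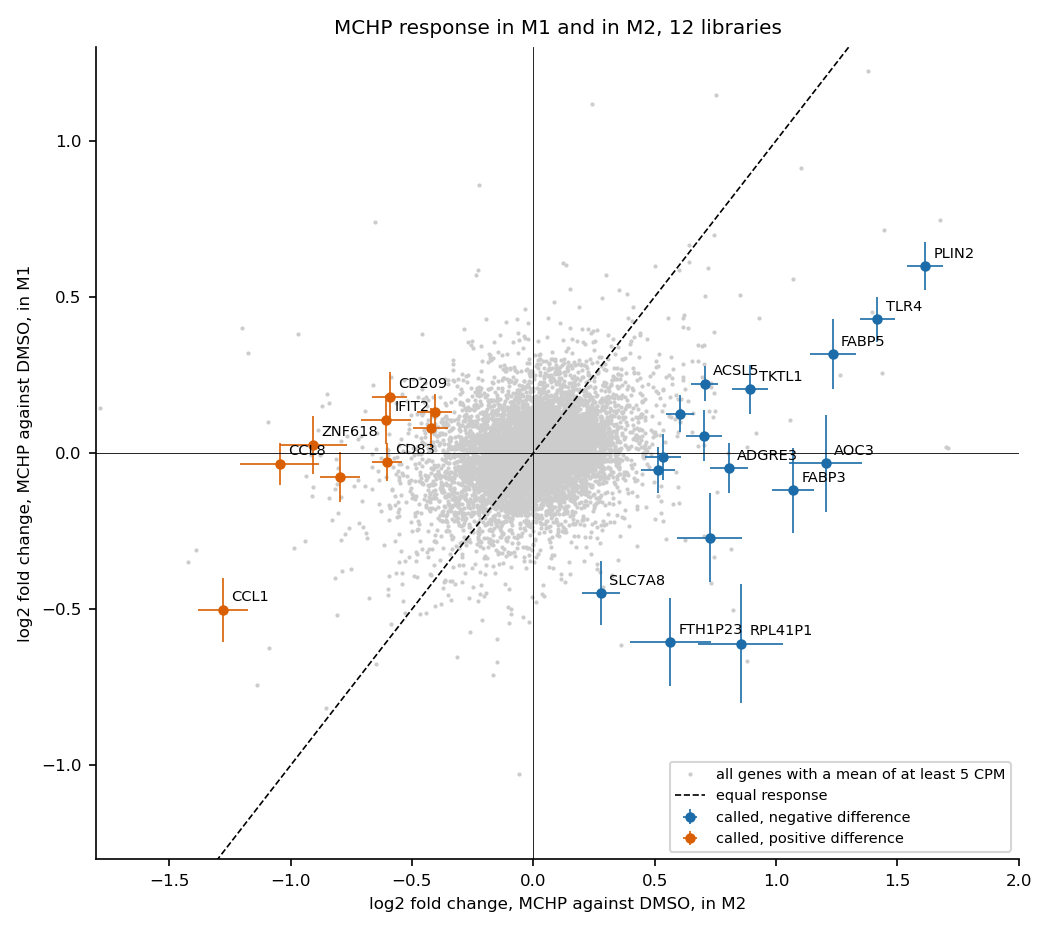
Response to MCHP in M2 (x axis) and in M1 (y axis), both as the log2 fold change against DMSO in the fit of 12 libraries. Coloured points are the 25 genes whose responses differed, with bars of 1 standard error, grey points are the genes with a mean of at least 5 CPM (5 lie outside the axes), and the dashed line marks equal responses. PLIN2 and TLR4 lie far to the right with smaller values on the M1 axis, and CCL1 and CCL8 lie to the left.

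Start regions of 4 of these genes are shown first: PLIN2, which shared the smallest adjusted p with TLR4, ACSL5, a lipid gene with a match to the nuclear receptor half-site, and NFKBIZ and CD83, immune genes with matches to the NF-kB motif. Each is the 250 bases before a transcription start in RefSeq (GRCh38.p14), written 5′ to 3′ on the strand of the gene. Capitals mark the motif matches, AGGTCA for the first pair of genes and GGGNNNTTCC for the second, each searched on both strands.
PLIN2, chr9:19127493-19127742, minus strand: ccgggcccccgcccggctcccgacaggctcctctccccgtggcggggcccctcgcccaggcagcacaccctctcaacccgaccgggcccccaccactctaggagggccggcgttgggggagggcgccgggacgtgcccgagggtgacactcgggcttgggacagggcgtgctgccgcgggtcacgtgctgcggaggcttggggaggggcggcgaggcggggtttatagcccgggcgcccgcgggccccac
ACSL5, chr10:112375018-112375267, plus strand: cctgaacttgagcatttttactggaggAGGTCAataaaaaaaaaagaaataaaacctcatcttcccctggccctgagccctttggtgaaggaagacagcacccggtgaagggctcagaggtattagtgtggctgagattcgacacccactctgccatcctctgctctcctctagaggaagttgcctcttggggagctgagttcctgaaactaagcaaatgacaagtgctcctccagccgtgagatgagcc
NFKBIZ, chr3:101827740-101827989, plus strand: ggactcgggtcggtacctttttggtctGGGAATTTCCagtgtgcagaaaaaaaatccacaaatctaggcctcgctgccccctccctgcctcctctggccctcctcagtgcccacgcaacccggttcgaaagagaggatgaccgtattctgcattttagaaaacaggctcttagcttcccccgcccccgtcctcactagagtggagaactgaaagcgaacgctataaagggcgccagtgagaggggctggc
CD83, chr6:14117522-14117771, plus strand: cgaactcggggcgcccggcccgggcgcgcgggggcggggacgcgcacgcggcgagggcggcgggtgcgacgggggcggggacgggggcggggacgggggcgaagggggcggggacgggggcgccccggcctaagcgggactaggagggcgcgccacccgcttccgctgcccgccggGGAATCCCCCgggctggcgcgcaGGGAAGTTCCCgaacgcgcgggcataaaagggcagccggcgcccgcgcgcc
The PLIN2 window held no AGGTCA, and 1 of the 2 ACSL5 windows held 1 match, at position -223 from the start. NFKBIZ had 1 match at -223 in the window shown. CD83 had 3 matches, beginning at -74 and at -51, of which the last pair overlap as the same letters read on both strands.

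In the fit of 11, the shares of windows with each motif were close to those over all genes tested. RefSeq windows were matched for 10303 of the genes tested, 15065 windows in all, since many genes have several starts. AGGTCA was present in 9.25% of all windows, in 9.21% of the 152 windows of genes with a positive difference in the fit of 11, and in 8.85% of the 260 windows of genes with a negative one. The pair of half-sites AGGTCANAGGTCA was in 3 windows of all genes and in none of the called genes. GGGNNNTTCC was in 6.7% of all windows, in 7.24% with a positive difference and in 5.38% with a negative one. Of the 25 genes, 7 with a positive and 9 with a negative difference had windows, 9 and 14 in all. AGGTCA was in 22.2% of the windows of the 7 and 14.3% of those of the 9, and GGGNNNTTCC in 33.3% and 7.14%, shares that rest on 1 to 3 windows each. CCL8, LGALS9, ACSL5 and ADGRE3 had a window with AGGTCA, and CCL1, CD83, NFKBIZ and ADGRE3 one with GGGNNNTTCC. These are matches of letters in short windows and describe nothing about binding.

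PLIN2 (ENSG00000147872, chr9:19108375-19149290 on hg38) encodes perilipin 2, a coat protein of lipid droplets. In M1 cells it had 35.8, 39.4 and 33.9 CPM with DMSO and 58.6, 52.1 and 54.4 with MCHP. In M2 cells it had 51.3, 46.4 and 47.1 CPM with DMSO and 144, 156 and 143 with MCHP. The groups with and without MCHP did not overlap in either state, and M2 DMSO replicate 1 lay within 5 CPM of its group. PLIN2 rose 1.51-fold in M1 (log2 0.60 ± 0.08, adjusted p = 0.0030) and 3.06-fold in M2 (log2 1.61 ± 0.07, adjusted p = 3.9e-10), and the difference was -1.02 ± 0.11 (SE, adjusted p = 0.00015).

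FABP3 and FABP5 encode cytosolic proteins that carry fatty acids through the cell. FABP3 (ENSG00000121769, chr1:31365625-31376850) had 4.86, 5.12 and 5.34 CPM in M1 DMSO and 5.01, 4.72 and 4.39 in M1 MCHP, which overlap. In M2 it rose from 25.3, 26.1 and 30.9 to 55.7, 61.1 and 56.0 CPM, and the difference was -1.19 ± 0.16 (SE, adjusted p = 0.0030). FABP5 had 15.2, 16.9 and 14.5 CPM in M1 DMSO and 21.3, 19.4 and 17.4 in M1 MCHP, and it rose in M2 from 39.3, 40.9 and 35.9 to 92.7, 101 and 79.3 CPM. Its groups did not overlap in either state, but the M1 response did not pass the test (log2 0.32 ± 0.11, adjusted p = 0.65), and the difference was -0.92 ± 0.15 (SE, adjusted p = 0.012). FABP5 has near-identical pseudogene copies, so its counts are uncertain.

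FABP4, the family member best known as a PPAR gamma target in macrophages, was not called in either fit. In M1 it had 6 counts over the 3 DMSO libraries and 30 over the 3 MCHP libraries, a ratio of 4.95 (exact 95% interval 2.03 to 14.5, counting error only). In M2 it had 411 and 4381 counts, a ratio of 11.4 (10.3 to 12.6). The fitted difference was -1.24 ± 1.33 (SE, adjusted p = 0.85). M2 DMSO replicate 1 gave 213 of the 411 counts, at 13.4 CPM against 6.18 and 5.30 in the other pair. Without it the M2 ratio was 16.2 (14 to 18.7), and the fitted difference was -1.76 ± 0.87 (SE, adjusted p = 0.34). The M1 and M2 intervals overlap with and without that library, but such an overlap is not a test of the difference.

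Genes that take up, activate and oxidize lipids had differences of the same sign. SCARB1, the scavenger receptor for high-density lipoprotein, had 31.1, 30.8 and 31.0 CPM in M1 DMSO and 30.2, 31.3 and 34.9 in M1 MCHP, which overlap, and 57.7, 63.9 and 69.1 against 108, 102 and 101 CPM in M2, with a difference of -0.65 ± 0.11 (SE, adjusted p = 0.019). ACSL5, which joins fatty acids to coenzyme A, had 136, 137 and 133 CPM with DMSO and 162, 159 and 152 with MCHP in M1 and 94.4, 92.9 and 88.2 with DMSO and 150.0, 154 and 146 with MCHP in M2. Both states moved upward without overlap, and the difference was -0.48 ± 0.08 (SE, adjusted p = 0.015). HADHA, a subunit of the mitochondrial trifunctional protein of fatty acid oxidation, had 119, 117 and 119.5 CPM with DMSO and 130.0, 129 and 129 with MCHP in M1 and 163, 167 and 173 with DMSO and 256, 239 and 269 with MCHP in M2. Its difference was -0.48 ± 0.08 (SE, adjusted p = 0.019). The SCARB1 call was lost when any 1 of 7 libraries was left out, ACSL5 with any 1 of 5 and HADHA with any 1 of 8.

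**Figure D2:**
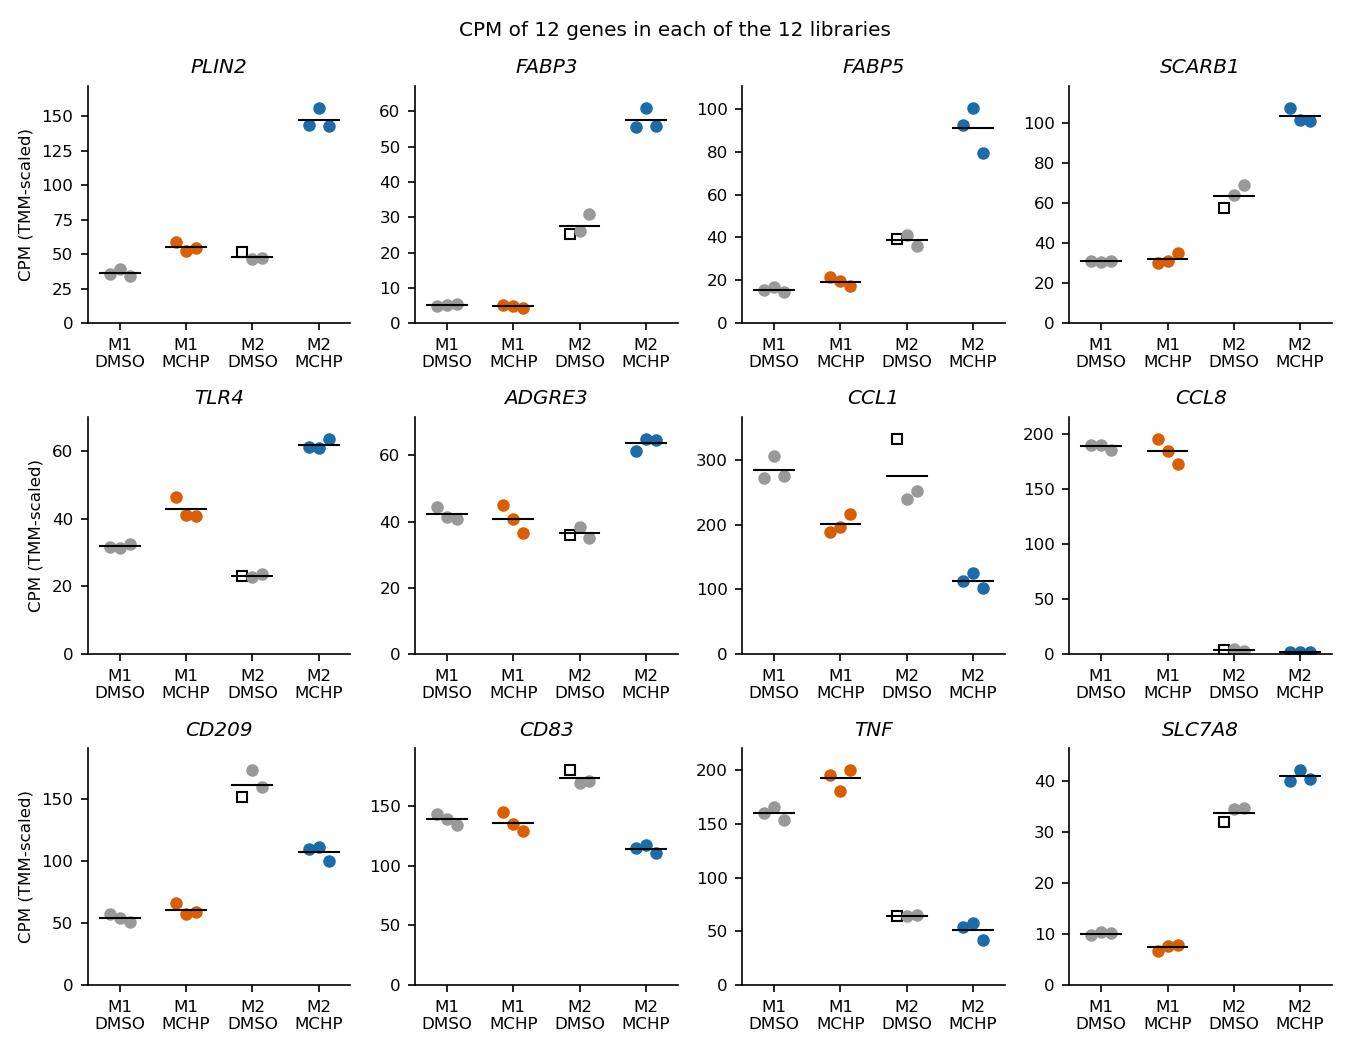
CPM (TMM-scaled, y axis from 0) of 12 genes in each of the 12 libraries, grouped by state and treatment on the x axis. Points are libraries, the open square is M2 DMSO replicate 1 and lines are group means. PLIN2, FABP3, FABP5, SCARB1, TLR4 and ADGRE3 are higher in all 3 M2 MCHP libraries than in any other library, and CCL1, CD209 and CD83 are lower there than in M2 DMSO.

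TLR4 (ENSG00000136869, chr9:117704175-117724730), the receptor for LPS, also rose further in M2 than in M1. It had 31.5, 31.5 and 32.5 CPM in M1 DMSO and 46.4, 41.3 and 40.8 in M1 MCHP, and 23, 22.8 and 23.8 in M2 DMSO and 61.3, 60.9 and 63.7 in M2 MCHP. The 4 groups did not overlap, and the order of M1 and M2 differed between treatments: with DMSO the M1 libraries were higher, and with MCHP the M2 libraries were higher. TLR4 rose 1.34-fold in M1 (log2 0.43 ± 0.07, adjusted p = 0.035) and 2.67-fold in M2 (log2 1.42 ± 0.07, adjusted p = 1.7e-09), with a difference of -0.99 ± 0.10 (SE, adjusted p = 0.00015). Of the 22 tested Toll-like receptors and adaptors it alone was called in either fit.

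Other surface proteins and enzymes with a negative difference also rose in M2. ADGRE3, an adhesion G protein-coupled receptor of myeloid cells, had 44.5, 41.4 and 40.8 CPM with DMSO and 44.9, 40.9 and 36.5 with MCHP in M1, which overlap, and 36.1, 38.3 and 35.1 with DMSO and 61.5, 65.1 and 64.8 with MCHP in M2. The difference was -0.85 ± 0.11 (SE, adjusted p = 0.0027). AOC3, a surface amine oxidase, was low, at 4.59 to 8.14 CPM in the other groups and 13.0, 13.3 and 12.9 in M2 MCHP, with a difference of -1.24 ± 0.22 (SE, adjusted p = 0.022). TNFRSF21, death receptor 6, had 153 to 167 CPM over the 6 M1 libraries and rose in M2 from 180.1, 209.7 and 229.6 to 290.1, 289 and 305 CPM, a difference of -0.57 ± 0.10 (SE, adjusted p = 0.022). TKTL1, a transketolase-like protein, rose in M2 from 35.5, 36.7 and 35.9 to 69.5, 66.7 and 64.6 CPM against 29.2, 30.4 and 29.5 with DMSO and 36.4, 35.7 and 30.6 with MCHP in M1, a difference of -0.69 ± 0.11 (SE, adjusted p = 0.012).

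SLC7A8, a transporter of large neutral amino acids, had responses of opposite sign in the 2 states. It had 9.79, 10.3 and 10.1 CPM in M1 DMSO and 6.76, 7.55 and 7.87 in M1 MCHP, and 31.9, 34.5 and 34.7 in M2 DMSO and 40.1, 42.3 and 40.5 in M2 MCHP. Neither pair overlapped, and the difference was -0.73 ± 0.13 (SE, adjusted p = 0.022). The M1 response passed the test only without M2 DMSO replicate 1 (log2 -0.45 ± 0.10, adjusted p = 0.025, against log2 -0.45 ± 0.10, adjusted p = 0.15 with it).

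The remaining 4 negative differences belong to transcripts whose reads can be shared with other copies. The mitochondrial rRNA MT-RNR2 had a difference of -0.55 ± 0.10 (SE, adjusted p = 0.036), and MTCO1P12, a nuclear copy of a mitochondrial gene, -0.997 ± 0.20 (SE, adjusted p = 0.049). The processed pseudogenes RPL41P1 and FTH1P23 had -1.47 ± 0.26 (SE, adjusted p = 0.022) and -1.17 ± 0.22 (SE, adjusted p = 0.031), at 3.24 to 13.4 CPM per library over both. How the deposited counting treated reads that match several places is not given in the sources used here.

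The 9 genes with a positive difference fell in M2, and their M1 responses lay between -0.50 and 0.18 on the log2 scale, with none past the test in the fit of 12 and CCL1 past it in the fit of 11. CCL1 and CCL8 are chemokines that attract monocytes and lymphocytes. CCL1 had 272, 306 and 275 CPM in M1 DMSO and 189, 197 and 216 in M1 MCHP, and 333, 239 and 252 in M2 DMSO and 113, 125 and 102 in M2 MCHP. Both states were lower with MCHP without overlap. The response was log2 -1.28 ± 0.10, adjusted p = 7.6e-07 in M2 and log2 -0.50 ± 0.10, adjusted p = 0.085 in M1, with a difference of 0.78 ± 0.15 (SE, adjusted p = 0.031). The highest M2 DMSO value, 333 CPM, belonged to replicate 1, and without that library the difference was 0.61 ± 0.09 (SE, adjusted p = 0.00016). From the fit of 12, the CCL1 call was lost with limma-voom, with a replicate block and when any 1 of 8 libraries was left out.

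CCL8 had very different levels in the 2 states. It had 190.2, 189.9 and 186 CPM in M1 DMSO and 196, 185 and 172 in M1 MCHP, which overlap, but only 3.72, 4.18 and 3.14 with DMSO and 2.07, 1.74 and 1.51 with MCHP in M2. Over the 3 M2 libraries of each treatment this was 185 counts with DMSO and 84 with MCHP, a ratio of 0.484 (exact 95% interval 0.369 to 0.629, counting error only). The log2 difference was 1.01 ± 0.18 (SE, adjusted p = 0.022). This call was lost with limma-voom and when any 1 of 9 libraries was left out. In CPM the mean change was -4.46 in M1 and -1.91 in M2, so the sign of the difference depends on the scale. CCL8 was the only one of the 25 genes for which the difference of log2 responses and the difference of CPM changes had opposite signs, and 10 of the 385 genes called without M2 DMSO replicate 1 did, CD74, FCGR1A and TNFSF10 among them.

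CD209 and CD83 are surface proteins of dendritic cells and of macrophages. CD209 (ENSG00000090659, chr19:7739994-7747564), a lectin raised by interleukin 4, had 56.8, 53.5 and 50.3 CPM with DMSO and 65.7, 57.4 and 58.8 with MCHP in M1 and fell in M2 from 151, 173 and 159 to 109.7, 111 and 100.0 CPM, a difference of 0.77 ± 0.11 (SE, adjusted p = 0.0030). CD83 had 144, 139 and 134 CPM with DMSO and 145, 135 and 129 with MCHP in M1, which overlap, and fell in M2 from 181, 169 and 171 to 115, 118 and 111 CPM. Its difference was 0.57 ± 0.09 (SE, adjusted p = 0.0083). With MCHP, CD83 was lower in M2 than in M1, and with DMSO it was higher.

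The other positive differences were of immune and structural genes. IFIT2, an interferon-induced gene, had 146, 146 and 147 CPM with DMSO and 159.6, 156 and 157 with MCHP in M1 and fell in M2 from 21.2, 18.4 and 17.7 to 11, 14.9 and 11.5 CPM, a difference of 0.71 ± 0.13 (SE, adjusted p = 0.022). LGALS9, the lectin galectin 9, had 0.54 ± 0.09 (SE, adjusted p = 0.022), and NFKBIZ, a nuclear regulator of NF-kB target genes, 0.50 ± 0.09 (SE, adjusted p = 0.031). NFKBIZ had 119.9, 120.2 and 116 CPM with DMSO and 122, 127 and 127 with MCHP in M1 and fell in M2 from 34.9, 30.8 and 31.1 to 23.8, 25.1 and 23.1 CPM. For all 3 genes the M1 libraries were higher than the M2 libraries in both treatments, and the M2 libraries with and without MCHP did not overlap. XIRP1, an actin-binding protein, fell in M2 from 68.2, 83.8 and 87.4 to 43.5, 45.0 and 49.6 CPM with 135 to 151 CPM in all 6 M1 libraries, a difference of 0.72 ± 0.11 (SE, adjusted p = 0.012). ZNF618, a zinc finger protein, had 0.93 ± 0.17 (SE, adjusted p = 0.022).

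Leaving out M2 DMSO replicate 1 raised the number of genes with different responses from 25 to 385, 2.52% of the same 15252 genes tested. Of these, 217 were negative (1.42%) and 168 positive (1.1%), and 2339 genes had an unadjusted p under 0.05. This split moved with the processing: scaled by library size alone, 165 were negative and 236 positive, and among genes with a mean of at least 5 CPM, 200 and 229. The set included all 25 genes of the fit of 12. The sign was the same in both fits for all 360 added genes. Their median absolute difference was 0.32 with the library and 0.37 without it, and their median standard error was 0.115 with it and 0.0834 without it. The estimate was larger without the library for 280 of the 360 and smaller for 80. Most of these differences were small: 274 of the 385 were under 0.5 on the log2 scale and 37 were at least 1. When a difference of more than 1 was tested for, 0 genes passed in the fit of 12 by edgeR's glmTreat (59 at an unadjusted p under 0.05) and 2 in the fit of 11, TMSB4XP8 and AC010343.1 (adjusted p = 0.0149 for each), the first with a positive and the second with a negative difference. Both are named because of their values.

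**Figure D3:**
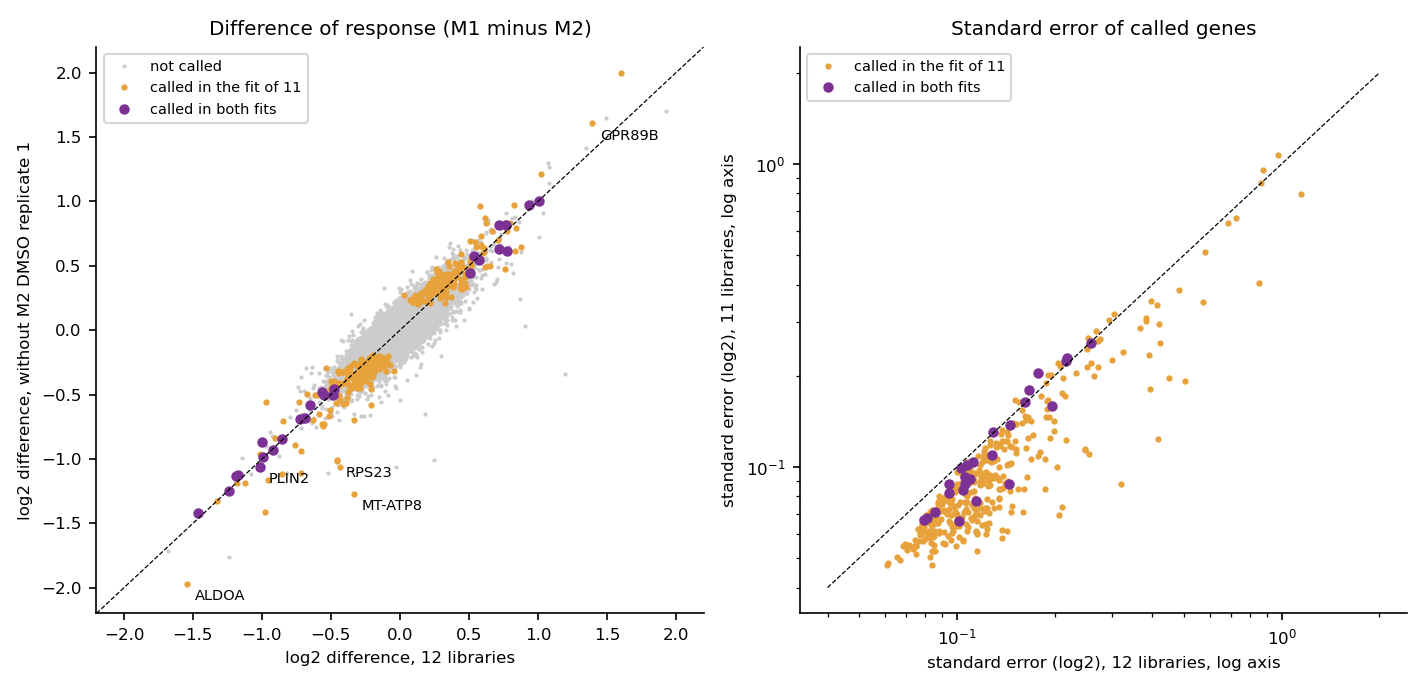
Left, the log2 difference of response in the fit of 12 libraries (x axis) and without M2 DMSO replicate 1 (y axis) for genes with a mean of at least 5 CPM (3 lie outside the axes); right, its standard error in both fits on log axes, for the called genes. Purple points were called in both fits and orange points in the fit of 11, and most points of the right panel lie below the dashed line of equal values, as the medians of 0.115 and 0.0834 show.

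Among the lipid genes called without that library was CD36, the fatty acid translocase, which rose in both states. It had 46.5, 47.5 and 46.2 CPM in M1 DMSO and 92.5, 85.3 and 86.2 in M1 MCHP, and 161, 121 and 127 in M2 DMSO and 293, 292 and 294 in M2 MCHP. M2 DMSO replicate 1 had the highest of the M2 DMSO values, and the difference was -0.19 ± 0.12 (SE, adjusted p = 0.69) with it and -0.33 ± 0.07 (SE, adjusted p = 0.0085) without it. In CPM the mean rise was 41.2 in M1 and 157 in M2, or 169 in M2 without M2 DMSO replicate 1. The log2 responses without that library were 0.91 ± 0.05 in M1 and 1.24 ± 0.05 in M2. NR1H3, the oxysterol receptor LXR alpha, rose in M1 (0.50 ± 0.07) and in M2 (0.87 ± 0.07), and the difference was -0.36 ± 0.10 (SE, adjusted p = 0.037). Enzymes of fatty acid oxidation were also called, HADHB at -0.33 ± 0.07 (SE, adjusted p = 0.0060) and DECR1 at -0.41 ± 0.07 (SE, adjusted p = 0.0020), with DGAT2, the last step of triglyceride synthesis, at -0.33 ± 0.06 (SE, adjusted p = 0.0028). ABHD5, a coactivator of lipolysis on droplets, had -0.45 ± 0.12 (SE, adjusted p = 0.037), VLDLR, a lipoprotein receptor, -0.28 ± 0.07 (SE, adjusted p = 0.019), and SCD, the stearoyl-CoA desaturase, -0.25 ± 0.05 (SE, adjusted p = 0.012).

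Immune genes called without that library had differences of both signs. TNF, the inflammatory cytokine, had 160.3, 166 and 154 CPM in M1 DMSO and 196, 181 and 201 in M1 MCHP, and 64.0, 64.3 and 65.4 in M2 DMSO and 54.4, 57.8 and 41.5 in M2 MCHP. Neither pair overlapped, the directions were opposite, and the difference was 0.60 ± 0.12 (SE, adjusted p = 0.067) with the library and 0.60 ± 0.11 (SE, adjusted p = 0.0016) without it. CCL2, a monocyte chemokine, had 193 to 223 CPM over the 6 M1 libraries, 122, 75.2 and 72.8 in M2 DMSO and 50.5, 59.6 and 44.0 in M2 MCHP. Its difference was 0.76 ± 0.20 (SE, adjusted p = 0.20) with the library and 0.47 ± 0.10 (SE, adjusted p = 0.0083) without it. CD86, a costimulatory ligand, was on the other side, with 41.8 to 48.0 CPM over the 6 M1 libraries and 146, 118 and 123 against 168, 174 and 152 in M2, a difference of -0.45 ± 0.09 (SE, adjusted p = 0.0036). CCL22, a chemokine raised by interleukin 4, rose in M2 from 629.5, 808 and 787 to 1152, 1241 and 1248 CPM and had 11.1 to 15.2 CPM in M1, a difference of -0.39 ± 0.10 (SE, adjusted p = 0.036).

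Several other immune genes had a positive difference in the fit of 11. They were NFKBIA, the inhibitor of NF-kB (0.40 ± 0.08 SE, adjusted p = 0.0031), TNFSF10, the ligand TRAIL (0.50 ± 0.09 SE, adjusted p = 0.0027), and CD70, a ligand of lymphocytes (0.69 ± 0.16 SE, adjusted p = 0.020). The lectin CLEC7A had 0.33 ± 0.07 (SE, adjusted p = 0.0087), the interferon-induced exonuclease ISG20 0.59 ± 0.14 (SE, adjusted p = 0.019) and the orphan nuclear receptor NR4A2 0.83 ± 0.20 (SE, adjusted p = 0.021). For these 6 genes the M2 response was negative and passed the test in that fit, and the M1 response did not pass. FCGR1A, an IgG receptor (0.37 ± 0.08 SE, adjusted p = 0.0078), and HLA-C (0.45 ± 0.09 SE, adjusted p = 0.0046) share reads with close relatives and are uncertain.

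For some genes M2 DMSO replicate 1 set the value of its group. MT-ATP8 had 51.7, 13.2 and 14.2 CPM in the M2 DMSO libraries, and the difference was -0.34 ± 0.50 (SE, adjusted p = 0.90) with replicate 1 and -1.27 ± 0.19 (SE, adjusted p = 0.00028) without it. The ribosomal protein gene RPS23 had 184, 72.2 and 80.2 CPM in M2 DMSO and 110.1, 118 and 106 in M2 MCHP, so that it was lower with MCHP than in replicate 1 and higher than in the other pair of libraries. Its difference was -0.46 ± 0.32 (SE, adjusted p = 0.74) with and -1.01 ± 0.09 (SE, adjusted p = 5.5e-08) without replicate 1. CEBPA, a myeloid transcription factor, was low in that library, at 56.3, 106 and 104 CPM in M2 DMSO, and the difference shrank from -0.53 ± 0.21 (SE) to -0.29 ± 0.07 (SE). Over all genes tested, replicate 1 was above the mean of its group's other libraries for 7666 of 15252.

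In the fit of 11 libraries, 117 genes passed the test in both states, out of 160 in M1 (1.05%) and 1747 in M2 (11.5%), and 4 of them moved in opposite directions. These were ALDOA, a glycolytic aldolase, RPS23, SLC7A8 and TNF. ALDOA had 6.00, 7.42 and 8.21 CPM in M1 DMSO, 4.70, 4.58 and 4.39 in M1 MCHP, 8.63, 3.71 and 4.67 in M2 DMSO and 9.62, 9.40 and 12.2 in M2 MCHP. The ALDOA difference was -1.97 ± 0.24 (SE, adjusted p = 1.5e-05), and -1.54 ± 0.33 (SE, adjusted p = 0.071) in the fit of 12. With DESeq2 on 11 libraries it was not called. The ALDOA mean was 6.96 CPM, where GAPDH, also of glycolysis, had 1116.5. ALDOA and RPS23 have pseudogene copies, so their counts are uncertain. RPS23 was lower with MCHP in M1 (log2 -0.46 ± 0.06, adjusted p = 6.4e-05) and higher in M2 (log2 0.55 ± 0.06, adjusted p = 6.6e-07). TNF was higher with MCHP in M1 (log2 0.27 ± 0.06, adjusted p = 0.033) and lower in M2 (log2 -0.34 ± 0.08, adjusted p = 0.0077). Across 10121 genes with a mean of at least 5 CPM, the M1 and M2 responses had a Pearson correlation of 0.320 in the fit of 12 and 0.275 in the fit of 11. This is across genes, which are not independent, and both responses come from 1 fit.

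The results were also grouped by 34 gene lists, which name 693 genes, 582 of them tested. Of the 582, 13 were called in the fit of 12 and 55 in the fit of 11, where 0.164% and 2.52% of all genes were. The lists overlap, and they were written with earlier results of these data known.

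Most lists of lipid handling held more negative than positive differences. Of 30 tested PPAR targets, 3 were called in the fit of 12 (PLIN2, FABP3 and HADHA) and 6 in the fit of 11 (with CD36, HADHB and NR1H3), all negative. Their median difference was -0.16 with 12 libraries and -0.19 with 11, beside -0.0025 and -0.0049 over all genes tested. Of 20 genes of fatty acid binding and uptake, 4 were called in the fit of 12 (FABP3, FABP5, SCARB1 and ACSL5) and 6 in the fit of 11 (with CD36 and VLDLR), all negative, with medians of -0.12 and -0.13. Lipid droplets and lipolysis (16 tested) had 1 and 2, with PLIN2 joined by ABHD5, and medians of -0.20 and -0.23. Fatty acid oxidation (28 tested) had 1 and 3, all negative, and medians of -0.09 and -0.11. Triglyceride synthesis (16 tested) had 0 in the fit of 12 and 1 in the fit of 11. Cholesterol synthesis and uptake (25 tested) had 0 and 1, with a positive difference for NPC2, and fatty acid synthesis (20 tested) had 0 and 2, 1 of each sign.

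Liver X receptor targets (14 tested) had SCARB1 in the fit of 12. In the fit of 11 they had NR1H3 and SCD as further negative members and SREBF1 as a positive one. The 23 markers of lipid-associated macrophages had FABP5 and PLIN2 in the fit of 12, both negative, and CD36 (negative) and ACP5 (positive, 0.34 ± 0.07 SE, adjusted p = 0.0050) in addition in the fit of 11. Their median difference was -0.06 and -0.03. TREM2, the receptor that marks such cells, had 59.7, 54.1 and 59.9 CPM in M2 DMSO and 41.1, 44.9 and 42.0 in M2 MCHP, 8.58, 9.24 and 7.13 in M1 DMSO and 4.88, 6.68 and 5.97 in M1 MCHP. It was lower with MCHP in both states without overlap, and the difference was -0.07 ± 0.16 (SE, adjusted p = 0.93).

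Called members of the NF-kB cytokine, CC chemokine, M1 and M2 marker and costimulatory lists were mostly positive. The Toll-like receptor list (22 tested) had TLR4 alone, which was negative, in both fits, with medians of -0.05 and -0.03. Of 28 NF-kB cytokines and regulators, 1 was called in the fit of 12 and 9 in the fit of 11, 8 of them positive, with medians of 0.23 and 0.16. Among 13 CC chemokines, CCL1 and CCL8 were called in the fit of 12, and CCL2 (positive) and CCL22 (negative) in addition in the fit of 11, with medians of 0.24 and 0.28. M1 markers (23 tested) had 1 and then 5 positive and 2 negative members, and their median was 0.05 with 12 libraries and -0.01 with 11. M2 markers (19 tested) had CD209 in the fit of 12 and CLEC7A, CHI3L1 and CCL22 in addition in the fit of 11, and CCL22 was the negative one. Costimulatory and dendritic cell markers (19 tested) had CD83 in the fit of 12 and CD70 (positive) and CD86 (negative) in addition in the fit of 11, with medians of 0.33 and 0.23.

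The median of the type I interferon list moved with the library. Its 37 tested members had a median of 0.29 with 12 libraries and 0.09 with 11. IFIT2 was called in the fit of 12, and ISG20 and STAT2 (0.25 ± 0.07 SE, adjusted p = 0.046) in addition in the fit of 11, all positive. M2 DMSO replicate 1 was above the mean of the other M2 DMSO libraries for 32 of the 37 members, with a median of 0.48 on the log2 scale, and its part in the IFIT2 value can be read from the fit of 11, where the difference was 0.63 ± 0.11 (SE, adjusted p = 0.0015). The interferon gamma list (33 tested) had FCGR1A alone in the fit of 11, and antigen presentation (24 tested) had HLA-C and CD74 (0.27 ± 0.07 SE, adjusted p = 0.019). CXCL10, the interferon gamma chemokine, had 264 to 365 CPM in the M1 libraries and at most 1.03 in the M2 libraries, and its difference of -1.08 ± 0.32 (SE, adjusted p = 0.29) was not called.

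**Figure D4:**
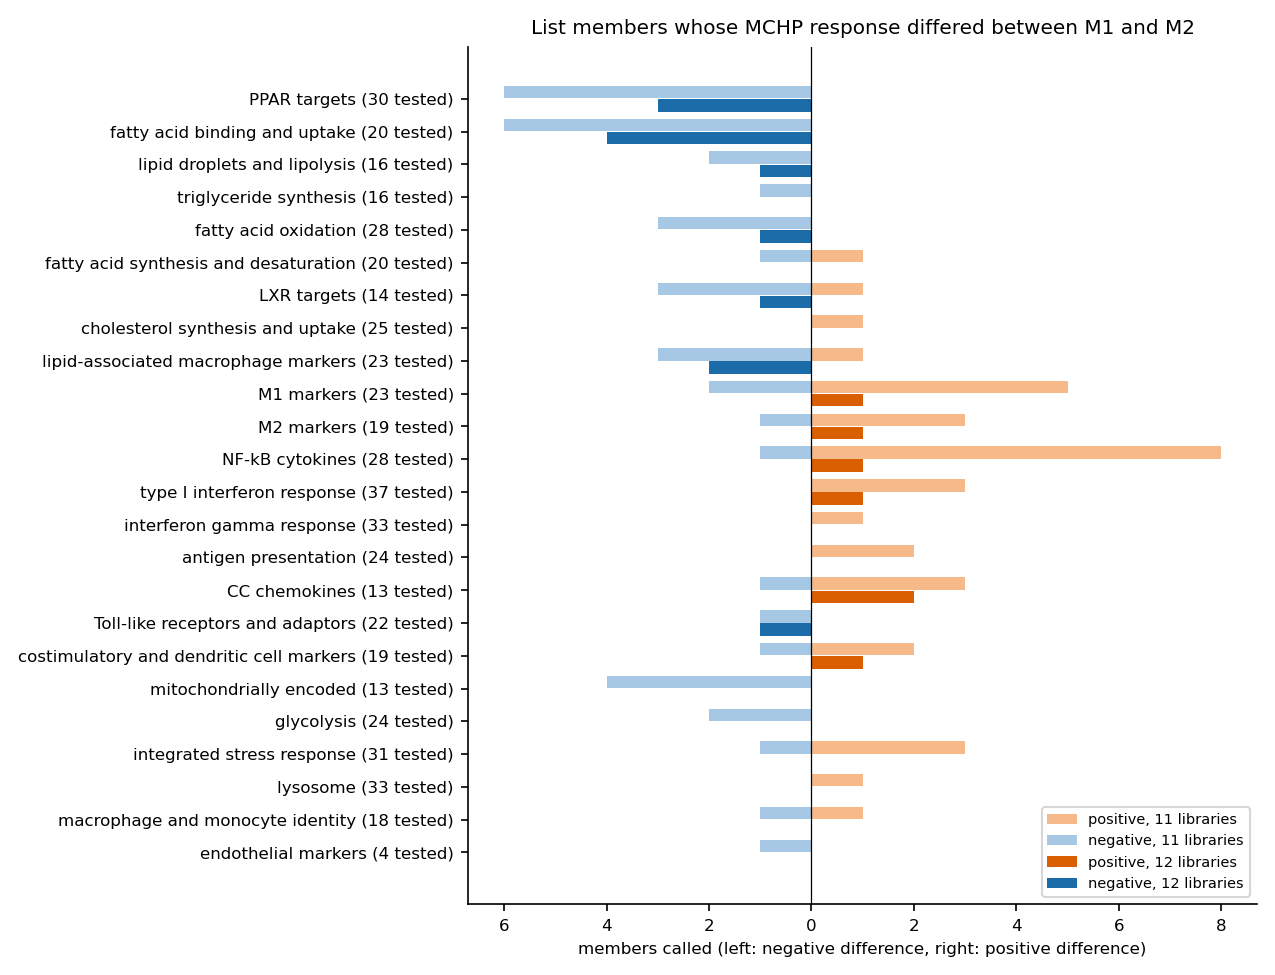
Number of members of each gene list whose responses differed, with negative differences to the left and positive ones to the right (x axis), for the fit of 12 libraries (dark) and of 11 (light). The 10 lists with no called member in either fit are not drawn; most lipid lists extend to the left, with 6 PPAR targets, and the NF-kB list to the right, with 8.

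The list of mitochondrially encoded genes held the 13 that code for proteins, and these had a median of -0.32 with 12 libraries and -0.24 with 11. None of the 13 was called in the fit of 12, where 0.164% of all genes were. In the fit of 11, where 2.52% of all genes were called, 4 of the 13 were, all negative: MT-ATP8, MT-ND4L, MT-CO2 and MT-ND4. Outside the list, the rRNA gene MT-RNR2 was called in both fits, and the rRNA gene MT-RNR1 and the tRNA genes MT-TN and MT-TL1 in the fit of 11, all negative. For MT-ATP8 and MT-ND4L the M2 DMSO replicate 1 value was the highest of all 12 libraries. The summed CPM of the 13 genes was 36990 in M2 MCHP replicate 3, against 31357 and 32136 in replicates 1 and 2. In the fit of 12, the MT-RNR2 call was lost when any 1 of 9 libraries was left out, M2 MCHP replicate 3 among them. In the fit of 11, MT-RNR2 was called in 19 of 20 alternatives. The 42 nuclear genes of oxidative phosphorylation had no called member and medians of -0.02 and -0.05. Glycolysis (24 tested) had ALDOA and GAPDH in the fit of 11 (-0.25 ± 0.05 SE, adjusted p = 0.011). The integrated stress response (31 tested) had 3 positive members and 1 negative in the fit of 11, among them GDF15 (0.44 ± 0.10 SE, adjusted p = 0.017), a stress-induced cytokine. The unfolded protein response, NRF2 and cell cycle lists (20, 23 and 28 tested) had none in either fit, and the cell cycle median was -0.18 in both. Lysosomal genes (33 tested) had NPC2 in the fit of 11. In lists of this size, no called member or 1 lies near the shares over all genes, 0.164% and 2.52%. Of 18 macrophage and monocyte identity genes, CSF1R (positive, 0.23 ± 0.06 SE) and CEBPA (negative) were called in the fit of 11. On the list of endothelial markers, PECAM1 was called in the fit of 11 (-0.21 ± 0.05 SE, adjusted p = 0.035). PECAM1 had 802 to 1158 CPM in these cells of a monocytic line, so the list name does not give its cell type here. No tested marker of neutrophils (7), T and NK cells (5), B cells (3), fibroblasts (4), adipocytes (3) or epithelium (3) was called in either fit.

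PPAR and retinoid X receptor genes themselves were not called in either fit. PPARG had 28.1, 32.2 and 26.7 CPM in M1 DMSO, 21.7, 24.1 and 22.1 in M1 MCHP, 128, 89.6 and 96.0 in M2 DMSO and 96.0, 92.9 and 84.8 in M2 MCHP. It was lower with MCHP in M1 without overlap, and M2 DMSO replicate 1 had its highest value, so the difference was -0.16 ± 0.16 (SE, adjusted p = 0.84) with that library and -0.33 ± 0.10 (SE, adjusted p = 0.086) without it. PPARD had 0.05 ± 0.12 (SE) in the fit of 12 and 0.18 ± 0.05 (SE, adjusted p = 0.072) in the fit of 11, PPARA 0.11 ± 0.10 (SE) and 0.13 ± 0.09 (SE), and RXRA -0.15 ± 0.15 (SE) and 0.01 ± 0.08 (SE). Known PPAR targets outside the called ones included ANGPTL4, with -0.44 ± 0.22 (SE, adjusted p = 0.59) in the fit of 12 and -0.41 ± 0.23 (SE, adjusted p = 0.42) in the fit of 11, and CPT1A, with -0.24 ± 0.16 (SE, adjusted p = 0.72) and -0.13 ± 0.13 (SE, adjusted p = 0.71). Of the macrophage genes chosen for description, ABCA1, IL1B and CD163 were not called in either fit. ABCA1 had -0.23 ± 0.10 (SE) with 12 libraries and -0.14 ± 0.06 (SE) with 11, IL1B 0.09 ± 0.08 (SE) and 0.09 ± 0.07 (SE), and CD163 -0.10 ± 0.13 (SE) and -0.06 ± 0.13 (SE). PDK4 had no count, MRC1 had 2 counts over 12 libraries, and neither was tested.

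Among the genes called in the fit of 11 with a difference of at least 1, 15 of 37 were pseudogenes. Pseudogenes made up 28 of the 385, which is 3.41% of the 822 tested. GPR89A and GPR89B, near-identical copies, had -1.41 ± 0.38 (SE, adjusted p = 0.043) and 1.61 ± 0.29 (SE, adjusted p = 0.0021), and GPR89A had 8.52, 8.71 and 20.6 CPM in the 3 M2 MCHP libraries. Protein-coding genes of this size with a mean of at least 5 CPM included IL7R, the interleukin 7 receptor (-1.16 ± 0.26 SE, adjusted p = 0.013), DHRS9, a retinol dehydrogenase (-1.12 ± 0.20 SE, adjusted p = 0.0023), and PHOSPHO1, a phosphatase (-1.33 ± 0.32 SE, adjusted p = 0.020). With DESeq2 on 11 libraries, IL7R, DHRS9 and PHOSPHO1 were not called. PHOSPHO1 had only 10 to 22 counts in each M1 library. DHRS9 had 6.74, 4.30 and 4.05 CPM in M2 DMSO and 8.39, 9.63 and 9.59 in M2 MCHP, with 7.95 to 9.30 in the M1 libraries. ACOD1, which makes itaconate, was chosen after its values were seen: it had 243 counts in M1 DMSO and 274 in M1 MCHP, but 14 in M2 DMSO and 1 in M2 MCHP, a ratio of 0.0761 in M2 (exact 95% interval 0.0018 to 0.5).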

How the data were processed

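Per the file headers, the authors deposited 1 table of unnormalized whole-number counts, with genes in rows and the 12 libraries in columns. Per the labels' protocols, mRNA was purified on poly-T beads from TRIzol extracts and copied with random hexamers. The submitters' processing notes list the build hg38, DESeq2 1.20.0, featureCounts 1.5.0-p3, StringTie 1.3.3b, HISAT2 2.0.5 and fastp, without their roles. No strand setting is given in the sources used here, so reads of overlapping or antisense genes cannot be told apart, and genes with near-identical copies are uncertain.

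Of 58907 genes, 26650 had no count. Counts were fitted in R 4.3.3 with edgeR 4.0.16: filterByExpr over 4 groups (15252 genes kept, at least 99.8% of counts), TMM factors, 1 mean per group and the two-sided quasi-likelihood F-test, with 8 residual degrees of freedom for 12 libraries and 7 for 11, on the same genes. The contrast was (M1 MCHP minus M1 DMSO) minus (M2 MCHP minus M2 DMSO), with Benjamini-Hochberg adjustment over all genes tested and a threshold of 0.05. Standard errors come from the F statistic. Exact intervals of count ratios cover counting error only. Alternatives were other scaling factors, other filters, DESeq2 1.42.0, limma-voom (limma 3.58.1) with and without quality weights, a replicate block, a minimum difference, and each library left out.

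The genes and lists were chosen with earlier results of these data known. Named were all genes called in the fit of 12. From the fit of 11 came the 12 largest differences in each direction among protein-coding genes with a mean of at least 5 CPM, and from each list up to 4 called members by smallest p in each fit, or the 2 smallest p where none was called. A chosen set of PPAR, lipid and polarization genes was added. The steps were tested on simulated counts in which no library stood apart from its group. That test therefore does not bear on the effect of M2 DMSO replicate 1. Promoter windows and gene starts are from RefSeq (GRCh38.p14), and other coordinates are those of the deposited table.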

Additional observations from a re-analysis of the deposited data

Results flagged for a closer look

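The response to MCHP differed between the M1 and M2 states for 25 genes by the test of the difference itself, edgeR's quasi-likelihood test with Benjamini-Hochberg adjustment on 12 libraries. Each value is the log2 response in M1 minus that in M2. The negative ones, with the response further upward in M2, were RPL41P1 (-1.47), AOC3 (-1.24), FABP3 (-1.19), FTH1P23 (-1.17), PLIN2 (-1.02), MTCO1P12 (-0.997), TLR4 (-0.99), FABP5 (-0.92), ADGRE3 (-0.85), SLC7A8 (-0.73), TKTL1 (-0.69), SCARB1 (-0.65), TNFRSF21 (-0.57), MT-RNR2 (-0.55), ACSL5 (-0.48) and HADHA (-0.48). The positive ones were CCL8 (1.01), ZNF618 (0.93), CCL1 (0.78), CD209 (0.77), XIRP1 (0.72), IFIT2 (0.71), CD83 (0.57), LGALS9 (0.54) and NFKBIZ (0.50). The test was passed by 385 genes when M2 DMSO replicate 1 was left out.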

How the results depend on the processing

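Of the 25 genes called in the fit of 12, none changed sign under 21 alternatives. PLIN2, TLR4, FABP3, ADGRE3, CD209 and CD83 passed the test in 20, all but the test against a minimum difference of 1. FABP5 and TKTL1 passed in 18, XIRP1 in 17, ACSL5 in 15, and SCARB1 and RPL41P1 in 13. HADHA and IFIT2 passed in 12, and TNFRSF21, AOC3 and FTH1P23 in 11. At the other end, MTCO1P12 passed in 7, LGALS9, NFKBIZ and ZNF618 in 9, and CCL1, CCL8, SLC7A8 and MT-RNR2 in 10. With 12 libraries, 25 genes became 170 without a filter on low counts, 96 with DESeq2, 656 with limma-voom and quality weights (all 25 included), and 0 with a minimum difference of 1. Leaving out 1 library gave 6 (M1 DMSO replicate 2, M2 MCHP replicate 1) to 36 genes (M2 DMSO replicate 3), except that 385 were called without M2 DMSO replicate 1. With 11 libraries, the 385 became 803 with quality weights and 2 with a minimum difference of 1, and leaving out 1 more library gave 144 (M2 DMSO replicate 2) to 579 (M2 MCHP replicate 2), with 207 without M1 DMSO replicate 3 and 232 and 246 without M1 MCHP replicates 2 and 3. The split was 168 positive to 217 negative, but 236 to 165 with library size alone, and 229 to 200 with a mean of at least 5 CPM. Members of the lists called went from 13 to 55 without M2 DMSO replicate 1 and to 71 with quality weights. The cause of these changes was not tested.

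The replicate block gave 24 genes with 12 libraries (22 shared with the 25) and 402 with 11 (344 shared with the 385). Same-numbered libraries correlated between -0.138 and 0.170 over 18 pairs, with 2 over 0.1, so the numbers were not taken to pair the libraries.

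With 2 libraries left in M2 DMSO, the fit of 11 pools the spread over groups, and its count rests on each of them: it fell to 144 without replicate 2 and to 154 without replicate 3. Of genes named from the fit of 11, ABHD5 and GPR89A were called in 7 of 20 alternatives, and NR1H3 and STAT2 in 9. PECAM1 was called in 10, CCL22 and SREBF1 in 11, and MT-ND4, NPC2 and PHOSPHO1 in 12. CD36 and HADHB were called in 18, and DECR1 and TNF in 19. Low counts limit FABP4, PHOSPHO1 in M1, CXCL10 in M2 and ACOD1 in M2.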
